A study of Mus musculus with 9 samples.

Results

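Cells in culture read growth signals from serum and from their neighbours through receptors in the plasma membrane. The mRNAs of 8 such receptors of fibroblasts were followed here: the platelet-derived growth factor (PDGF) receptors Pdgfra and Pdgfrb, the fibroblast growth factor (FGF) receptor Fgfr1, the epidermal growth factor (EGF) receptor Egfr, the hepatocyte growth factor receptor Met, the Gas6 receptor Axl, the growth hormone receptor Ghr and the angiotensin II type 2 receptor Agtr2. They were taken as all probe sets whose platform annotation gives exactly 1 gene symbol, being one of these names. This gave 18 probe sets of 22690 on the array, for 8 of 12393 genes. Each line was measured on 3 arrays, 9 in all. SV5-NN4 is a stable clone of NIH 3T3 cells that carries SV40 (simian virus) large T antigen plus added wild-type N-ras. SV5 is a stable NIH 3T3 clone transformed by SV40 that carries large T antigen alone, and NIH 3T3, a mouse embryo fibroblast line with the genotype given as wild type, is the parent of both. All lines grew in medium with 10% calf serum. With 1 clone per transformed line, a difference between lines cannot be told apart from a difference between clones.

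The 6 receptor tyrosine kinases among these genes share one mode of action. A ligand brings receptor chains together, their kinase domains phosphorylate tyrosines in the tails, and adaptor proteins bound there start the Ras-ERK, PI3K and phospholipase C pathways. PDGF, a major mitogen of serum, acts on mesenchymal cells in this way, and Pdgfra and Pdgfrb are classical fibroblast receptors. Ghr has no kinase of its own and signals through the associated kinase Jak2 to STAT5 proteins, whereas Agtr2 is a G protein-coupled receptor that is abundant in fetal mesenchyme and often acts against the growth-promoting type 1 angiotensin receptor.

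Promoters are shown for the 3 genes whose lower mRNA in SV5-NN4 passed the test described below at the brightest probe set. Egfr passed at its second probe set only and is not shown. The promoters shown give the sequence context of the differences. They come from the RefSeq annotation of the mouse assembly GRCm38.p6, as windows of 300 bases that hold 250 bases before and 50 bases from the annotated start, written 5′ to 3′ on the gene's strand. Windows of 6 of the 8 genes were used, all but Pdgfrb and Fgfr1. Pdgfra lies at chr5:75152001-75152300 on the plus strand, Agtr2 at chrX:21484374-21484673 on the plus strand, and Ghr has 2 starts on the minus strand, at chr15:3583303-3583602 and chr15:3581793-3582092. Capitals mark matches, on either strand, to 5 motifs. These were the TATA-type element spelled TATANA and the CCAAT box. The GC box was spelled GGGCGG. The AP-1 site was spelled TGANTCA. The E-box was spelled CACGTG.
Pdgfra: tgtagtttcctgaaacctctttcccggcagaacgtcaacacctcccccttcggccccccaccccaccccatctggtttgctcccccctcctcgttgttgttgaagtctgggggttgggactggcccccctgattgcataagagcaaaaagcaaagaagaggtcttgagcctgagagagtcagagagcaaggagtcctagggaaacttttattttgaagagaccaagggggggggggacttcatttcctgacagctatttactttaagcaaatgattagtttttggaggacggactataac
Agtr2: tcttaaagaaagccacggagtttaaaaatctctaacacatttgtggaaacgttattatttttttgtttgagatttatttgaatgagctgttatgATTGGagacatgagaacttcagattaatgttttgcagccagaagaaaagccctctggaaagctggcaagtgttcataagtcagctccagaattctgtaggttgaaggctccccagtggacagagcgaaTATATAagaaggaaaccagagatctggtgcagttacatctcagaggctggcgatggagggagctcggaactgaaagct
Ghr, distal start: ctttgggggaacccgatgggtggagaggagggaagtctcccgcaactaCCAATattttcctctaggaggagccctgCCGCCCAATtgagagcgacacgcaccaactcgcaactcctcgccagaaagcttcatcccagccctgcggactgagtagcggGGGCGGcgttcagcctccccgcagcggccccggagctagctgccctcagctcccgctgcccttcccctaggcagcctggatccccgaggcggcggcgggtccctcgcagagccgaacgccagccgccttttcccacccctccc
Ghr, proximal start: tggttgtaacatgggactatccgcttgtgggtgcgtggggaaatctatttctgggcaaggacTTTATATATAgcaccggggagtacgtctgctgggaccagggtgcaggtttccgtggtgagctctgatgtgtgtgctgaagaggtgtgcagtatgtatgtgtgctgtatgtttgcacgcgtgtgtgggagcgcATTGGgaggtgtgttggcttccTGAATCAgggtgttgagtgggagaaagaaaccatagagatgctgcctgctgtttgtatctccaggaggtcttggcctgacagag

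The Pdgfra window held 0 matches to these motifs. The Agtr2 window held TATATA at 28 bases before the start, which reads as a TATA-type match on both strands, and a CCAAT box on the minus strand 156 bases before it. The distal Ghr window had 67% G and C, with matches to CCAAT at 202 and 170 bases and to the GC box at 174 and 93 bases before the start; the CCAAT match at 170 overlaps the GC box at 174. The proximal Ghr window, with 52.3% G and C, held overlapping TATA-type matches 188 to 184 bases before the start, a CCAAT box and the AP-1 match TGAATCA at 34 bases. Of 32851 such windows in the annotation, 24.7% held TATANA, 37.4% CCAAT, 35.7% GGGCGG, 7.81% TGANTCA and 7.15% CACGTG. Matches to the TATA-type element and the CCAAT box were thus found in both the Agtr2 and the proximal Ghr window and not in that of Pdgfra; a match describes letters only, and nothing follows from its absence.

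Values are given as log2(intensity + 1), where 1 unit is a doubling, for the brightest probe set of each gene unless stated. Array medians were 56.2 to 62.35 on the intensity scale, but the upper quartiles were less alike. Replicate 3 had the highest upper quartile of each line, at 239.7 (SV5-NN4), 235 (SV5) and 218.7 (NIH 3T3). All other arrays lay between 165.2 and 187.3, so the scale of bright probe sets differed with replicate number. Probe sets for bacterial transcripts that mouse cells lack lay at 3.18 to 4.25, a level taken as the floor. The 9 arrays differed by replicate number as well as by line, so equal numbers were paired: a difference was estimated with the replicate number as a block in limma, and called at a Benjamini-Hochberg adjusted p under 0.05 over all probe sets. Nras, the added gene, averaged 8.24 ± 0.21 in SV5-NN4, 8.18 ± 0.36 in SV5 and 7.46 ± 0.37 in NIH 3T3 (SD, n = 3 each) at its brightest probe set. The difference between SV5-NN4 and SV5 was 0.06 (95% interval -0.28 to 0.40, adjusted p = 0.964 in limma), and 0.27 and 0.05 at its other 2 probe sets. The arrays thus did not show the added gene over SV5, and the lines are called by their labels. Relative to NIH 3T3, the brightest Nras probe set was 0.78 higher in SV5-NN4 (adjusted p = 0.0516 in limma) and 0.72 higher in SV5 (0.125). A further probe set was called higher in SV5-NN4 (1.02, adjusted p = 0.046) and was 0.97 higher in SV5 (0.121). The last gave 0.24 and -0.03. T antigen mRNA was not analysed here. Of 13 fibroblast markers, 12 reached the median level of 5.93, as did 1 of 10 epithelial, 0 of 9 endothelial and 4 of 9 haematopoietic markers. Of those 3 lists, Cdh1 and Esrp1, then Pecam1, Tek and Vwf, then Ptprc were at or below the floor. Actb signal at its 3′ end over its 5′ end, a sign of RNA integrity, was 4.07, 4.63 and 3.66 (log2) in SV5-NN4 replicates 1 to 3, against 3.73, 4.33 and 2.42 in SV5. The 3 NIH 3T3 arrays had 4.26, 4.43 and 5.06, and the same ratio for Gapdh was 5.21 on NIH 3T3 replicate 3, against 2.36 to 3.52 on the other arrays. On all 9 arrays the 3′ signal of Actb was the stronger, by 2.42 to 5.06. The ratio was higher in SV5-NN4 than in SV5 in every pair. Its part in the differences below, and in the disagreement between probe sets of a gene, was not tested.

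Between SV5-NN4 and SV5 7 of the 8 receptors had differences below 0. Agtr2 fell by 3.79 and Pdgfra fell by 2.10 on the log2 scale, while Ghr, Fgfr1 and Pdgfrb differed by -1.44, -1.07 and -0.64 without passing the test, and Egfr, Met and Axl differed by -0.19, -0.12 and 0.21. In all, 2 of 8 genes were called lower and 0 higher, where 0.678% of all 12393 genes were called lower; of the 18 probe sets 3 were called lower, against 0.555% of all probe sets. Without the replicate block limma called 0 of 8, where it called 0.0888% of genes in either direction. At an unadjusted p under 0.05 in the paired fit 5 of 8 were lower, where 7.33% of genes were. The median of the 8 differences was -0.86 and that of all genes 0.01. Since these genes were chosen with earlier results of the same arrays known, the counts describe them and are no independent evidence.

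**Figure D1:**
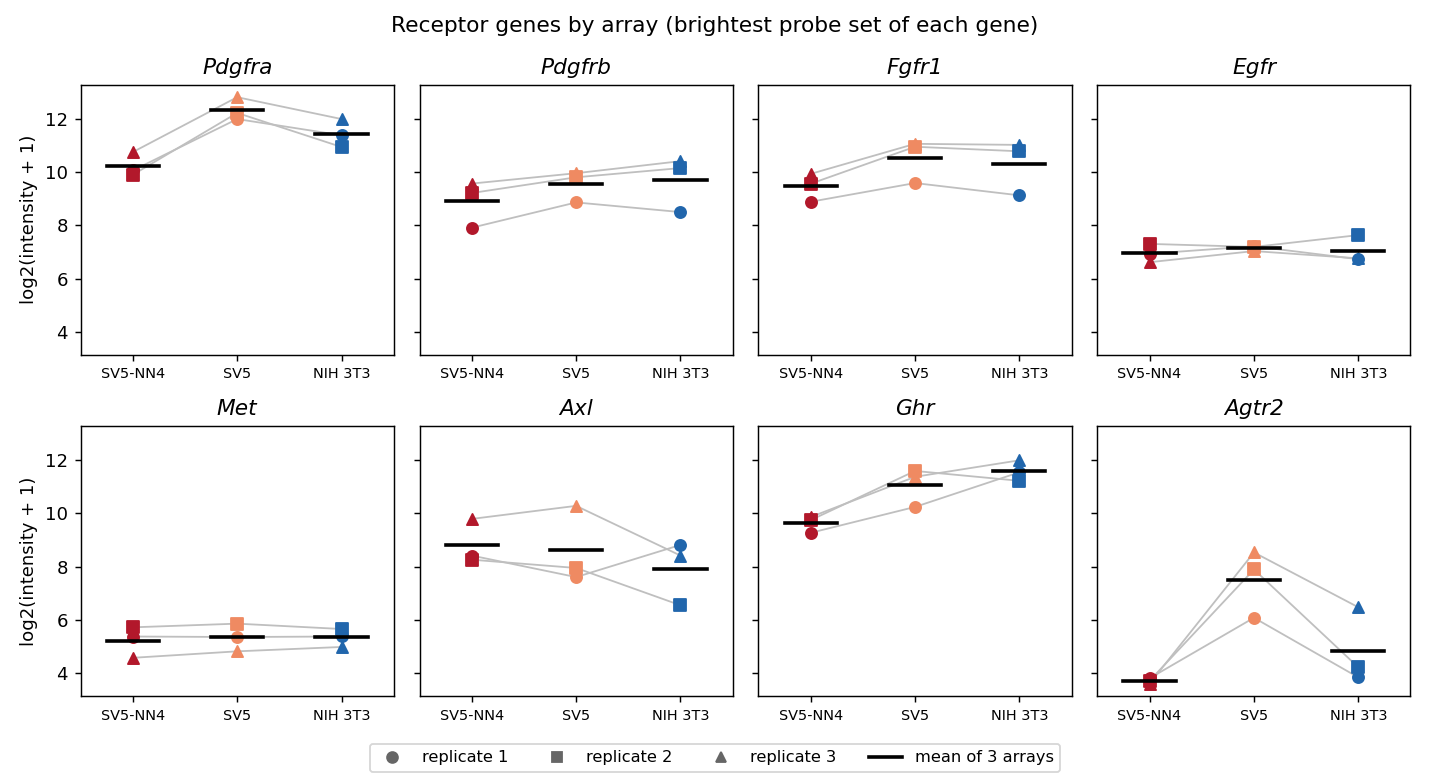
Level of each receptor gene on each array, as log2(intensity + 1) of its brightest probe set, for SV5-NN4, SV5 and NIH 3T3; grey lines join equal replicate numbers, marker shapes give the number, and black bars are means of 3 arrays. For Pdgfra and Agtr2 all SV5-NN4 points lie below all SV5 points, whereas the points of Met and Egfr overlap between lines.

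Pdgfra encodes the alpha receptor for PDGF, which binds the A, B and C chains of the ligand. It read 10.06, 9.90 and 10.75 in SV5-NN4 replicates 1 to 3. The SV5 arrays read 11.99, 12.22 and 12.81, and the NIH 3T3 arrays 11.38, 10.94 and 11.99. SV5-NN4 was lowest and SV5 highest. SV5-NN4 overlapped neither other line, while the nearest SV5 and NIH 3T3 arrays met at 11.99 to the digits shown. Pdgfra averaged 10.24 ± 0.45 (SD, n = 3) in SV5-NN4 and 12.34 ± 0.42 in SV5, a 4.30-fold lower level (difference -2.10, SE 0.15, 95% interval -2.45 to -1.75, adjusted p = 0.00317 in paired limma). The pairs gave -1.94, -2.32 and -2.05, so each pair differed by about the same amount. From bulk RNA, fewer cells with the mRNA and less mRNA per cell cannot be told apart. The call was lost without the block (adjusted p = 0.167) and without SV5-NN4 replicate 2 (difference -2.09, adjusted p = 0.0572), and it held without any other array.

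Against NIH 3T3 too Pdgfra fell in SV5-NN4, by 1.20 (SE 0.15, adjusted p = 0.0217 in limma, 2.29-fold), with pairs of -1.32, -1.04 and -1.23. That call was lost without the block (adjusted p = 0.658), and without any SV5-NN4 array or NIH 3T3 replicate 2 or 3, at adjusted p from 0.0506 to 0.157. It was also lost with only these lines in the fit (0.0776) and with the gene's probe sets averaged (difference -0.73, adjusted p = 0.0848). In SV5 it was 0.91 above NIH 3T3 (SE 0.15, 95% interval 0.56 to 1.26, adjusted p = 0.113), with 3 of 3 pairs positive. The second Pdgfra probe set, annotated with the same source sequence, was dim: it averaged 5.16 ± 0.49 in SV5-NN4, 5.86 ± 0.88 in SV5 and 5.42 ± 0.15 in NIH 3T3. Its difference between SV5-NN4 and SV5 was -0.70 (adjusted p = 0.349), and its lines overlapped.

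Pdgfrb encodes the beta receptor, which binds the B and D chains. It read 7.91, 9.21 and 9.57 in SV5-NN4, 8.86, 9.80 and 9.96 in SV5, and 8.50, 10.15 and 10.41 in NIH 3T3. Replicate 1 was lowest in each line, and the lines overlapped. By pair, SV5-NN4 was lower than SV5 each time, with pairs of -0.95, -0.59 and -0.39 and a difference of -0.64 (SE 0.17, 95% interval -1.05 to -0.24, adjusted p = 0.158 in limma), called only with just these lines in the fit (0.0476). Against NIH 3T3 the difference was -0.79 (SE 0.17, adjusted p = 0.0799), and between SV5 and NIH 3T3 -0.14 (adjusted p = 0.747). A second probe set gave -0.53 for SV5-NN4 against SV5 (adjusted p = 0.223), but -0.05 against NIH 3T3 and 0.49 for SV5 against NIH 3T3. The probe sets thus disagreed on where NIH 3T3 stood.

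Fgfr1, the main FGF receptor of fibroblasts, read 8.89, 9.56 and 9.93 in SV5-NN4, 9.59, 10.95 and 11.06 in SV5, and 9.13, 10.78 and 11.02 in NIH 3T3. SV5-NN4 was the lowest line within every replicate number, but its replicates 2 and 3 lay above replicate 1 of NIH 3T3, and replicate 3 above replicate 1 of SV5. The difference from SV5 was -1.07 (SE 0.20, 95% interval -1.54 to -0.61, adjusted p = 0.0653) and that from NIH 3T3 -0.85 (SE 0.20, adjusted p = 0.09), so neither passed in limma. The difference from SV5 did pass with only these lines in the fit (adjusted p = 0.0167) and among probe sets at or above the median level (0.0443). SV5 and NIH 3T3 were neighbours, with a difference of 0.22 (95% interval -0.24 to 0.69). The second Fgfr1 probe set, a dim one at 5.30 ± 0.15 in SV5-NN4, 5.90 ± 0.64 in SV5 and 5.65 ± 0.72 in NIH 3T3, gave -0.60 for SV5-NN4 against SV5 (adjusted p = 0.644).

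Egfr, the receptor for EGF and related ligands, had 5 probe sets that did not move alike. The brightest averaged 6.95 ± 0.34 in SV5-NN4, 7.15 ± 0.10 in SV5 and 7.04 ± 0.51 in NIH 3T3, with differences of -0.19, -0.09 and 0.10 between the lines and adjusted p from 0.829 to 0.858. The next brightest read 4.49, 5.60 and 6.13 in SV5-NN4, against 6.15, 7.03 and 7.29 in SV5 and 4.96, 6.85 and 6.68 in NIH 3T3. All SV5-NN4 arrays lay below all SV5 arrays there, the nearest being replicate 3 of SV5-NN4 and replicate 1 of SV5. At this probe set Egfr fell by 1.42 in SV5-NN4 relative to SV5 (SE 0.21, pairs -1.67, -1.43 and -1.17, adjusted p = 0.0356 in paired limma). The call was lost without the block (adjusted p = 1), without any SV5 or SV5-NN4 array (adjusted p from 0.11 to 0.207), with a pseudocount of 16 (0.0540), with a random block (0.0541) and after quantile normalization (0.0652). The other 3 probe sets, which lay between 3.94 and 5.92 on single arrays, differed by -0.16 to 0.10 between SV5-NN4 and SV5. One of them is annotated with the same source sequence as the second and gave -0.13 (95% interval -0.45 to 0.19), so the probe sets of Egfr disagreed.

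Met, the receptor for hepatocyte growth factor, was dim, between 4.58 and 5.86 on all arrays. It averaged 5.23 ± 0.59 in SV5-NN4, 5.35 ± 0.52 in SV5 and 5.34 ± 0.34 in NIH 3T3. Differences between lines were -0.12, -0.12 and 0.01, and their 95% intervals together spanned -0.44 to 0.32.

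Axl, a receptor of the TAM family that binds the vitamin K-dependent protein Gas6, varied widely among arrays of one line. It read 8.41, 8.26 and 9.79 in SV5-NN4, 7.61, 7.95 and 10.28 in SV5, and 8.81, 6.55 and 8.41 in NIH 3T3. The lines overlapped, and the pairs disagreed in sign in all comparisons. Differences were 0.21 for SV5-NN4 against SV5 (95% interval -1.04 to 1.46), 0.90 for SV5-NN4 against NIH 3T3 (-0.36 to 2.15) and 0.69 for SV5 against NIH 3T3 (-0.57 to 1.94). Without NIH 3T3 replicate 1, Axl was 1.69 higher in SV5-NN4 than in NIH 3T3 (adjusted p = 0.0191 in limma), a call made in none of the other 8 fits that left out an array. Its second probe set was above the bacterial controls of the same array on 2 SV5-NN4, 1 SV5 and 1 NIH 3T3 arrays only.

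Ghr binds growth hormone, which acts through it on IGF-1 production and growth. It read 9.27, 9.74 and 9.86 in SV5-NN4, 10.24, 11.59 and 11.37 in SV5, and 11.54, 11.22 and 11.99 in NIH 3T3. All SV5-NN4 arrays lay below all others, while SV5 and NIH 3T3 overlapped. Ghr averaged 9.62 ± 0.31 in SV5-NN4 and 11.58 ± 0.38 in NIH 3T3, and it fell by 1.96 (SE 0.28, 3.89-fold, pairs -2.27, -1.48 and -2.13, adjusted p = 0.0295 in paired limma). The call was lost without the block (adjusted p = 0.274), with only these lines in the fit (0.0633), and without any SV5-NN4 array or NIH 3T3 replicate 2 or 3 (0.0503 to 0.204). Against SV5 the difference was -1.44 (SE 0.28, 95% interval -2.10 to -0.79, adjusted p = 0.0724), a call that was made without NIH 3T3 replicate 1 (0.0215) and in 3 of 9 other settings. A second probe set separated SV5-NN4 from both other lines in the same way, by -1.21 from SV5 and -1.41 from NIH 3T3 (adjusted p = 0.23 and 0.127). The third, at 5.56 ± 0.49 in SV5-NN4, 5.72 ± 0.07 in SV5 and 6.11 ± 0.15 in NIH 3T3, differed by -0.17 and -0.55.

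Agtr2 showed the widest range. Its single probe set read 3.81, 3.72 and 3.61 in SV5-NN4, against 6.08, 7.89 and 8.53 in SV5 and 3.84, 4.22 and 6.47 in NIH 3T3. None of the 3 SV5-NN4 arrays was above the bacterial controls of its own array, against 3 of 3 SV5 arrays and 1 of 3 NIH 3T3 arrays. Agtr2 averaged 3.71 ± 0.10 in SV5-NN4 and 7.50 ± 1.27 in SV5 (difference -3.79, SE 0.56, 95% interval -5.11 to -2.47, adjusted p = 0.0366 in paired limma). With each SV5-NN4 array set to its highest bacterial control, the mean log2 levels of Agtr2 in these lines stood 12.2-fold apart. This ratio leaves out the spread among the SV5 arrays and is no lower limit for the difference. The pairs gave -2.27, -4.18 and -4.92. The call was lost without the block (adjusted p = 0.247), with a pseudocount of 16 (difference -2.83, adjusted p = 0.0787), and without any SV5 array, SV5-NN4 replicate 2 or 3, or NIH 3T3 replicate 2 (0.0644 to 0.206).

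In SV5 relative to NIH 3T3, Agtr2 was 2.65 higher (SE 0.56, 95% interval 1.34 to 3.97, adjusted p = 0.135 in limma), with pairs of 2.24, 3.67 and 2.06. NIH 3T3 replicate 3, at 6.47, overlapped SV5 replicate 1, at 6.08. Between SV5-NN4 and NIH 3T3 the difference was -1.14 (adjusted p = 0.359) with pairs of -0.03, -0.50 and -2.86, the widest from that replicate 3. In the first 2 of these pairs both arrays lay at or below the controls, so their signs are not measured differences. With a pseudocount of 16 the difference between SV5 and NIH 3T3 was 2.10 (adjusted p = 0.168).

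**Figure D2:**
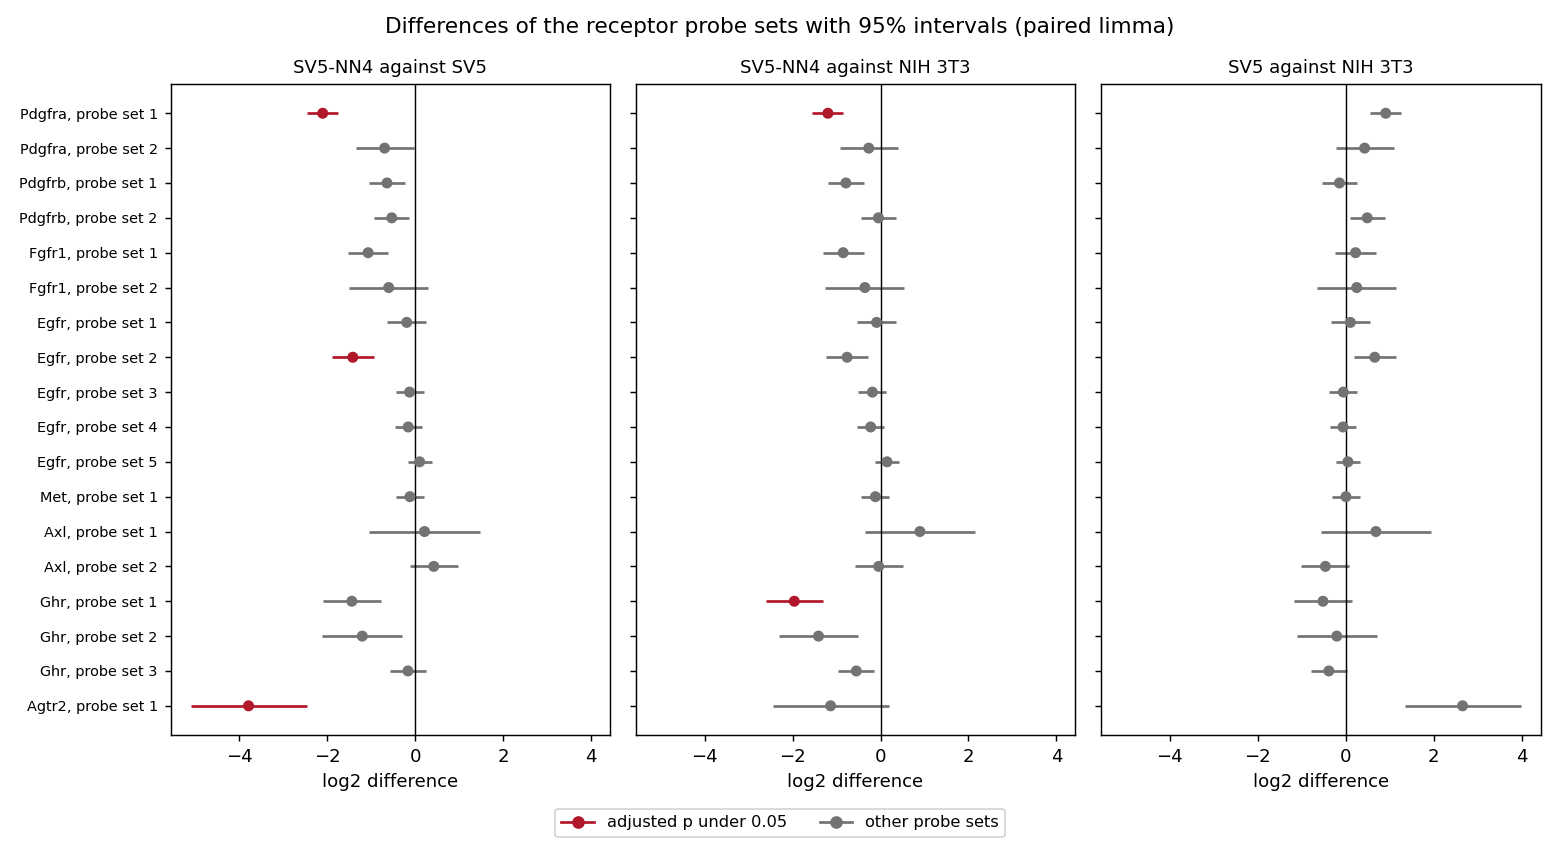
Log2 differences of all 18 receptor probe sets with 95% intervals from the paired limma fit, for SV5-NN4 against SV5, SV5-NN4 against NIH 3T3 and SV5 against NIH 3T3; red marks an adjusted p under 0.05, and the probe sets of a gene run from its brightest down. Red points are Pdgfra, the second Egfr probe set and Agtr2 on the left and Pdgfra and Ghr in the middle, with none on the right.

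Taking the comparisons with NIH 3T3 as a whole, SV5-NN4 had 2 of 8 genes called lower, Pdgfra and Ghr, and 0 higher, where 0.686% of all genes were called lower. By probe set it was 2 of 18, against 0.516% of all. Without the block 0 of 8 were called, where 0.0807% of genes were. At an unadjusted p under 0.05 the paired fit had 4 of 8 lower, against 8.04% of genes. For SV5 against NIH 3T3, limma called 0 of 8 genes and 0 of 18 probe sets in the paired fit, where 0.0484% of genes were called in either direction, and 0 without the block (0.00807%). At an unadjusted p under 0.05 it had 2 of 8 higher, Pdgfra and Agtr2, against 9.07% of genes.

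Between SV5-NN4 and SV5 the arrays of 3 of 8 genes did not overlap, all lower, where this held for 4.32% of genes. Between SV5-NN4 and NIH 3T3 it was 3 of 8, namely Pdgfra, Ghr and Agtr2, against 3.26%, and between SV5 and NIH 3T3 1 of 8, Pdgfra, which was higher, against 2.31%. There SV5 replicate 1 and NIH 3T3 replicate 3 both read 11.99 to the digits shown, and the difference of Pdgfra was not called. Every pair was lower for 5 of 8 genes in SV5-NN4 relative to SV5 (20.6% of all genes), namely Pdgfra, Pdgfrb, Fgfr1, Ghr and Agtr2, and for 5 of 8 relative to NIH 3T3 (19.6%), namely Pdgfra, Pdgfrb, Fgfr1, Ghr and Agtr2. For Agtr2 relative to NIH 3T3, both of these counts rest on arrays not above the bacterial controls. Every pair was higher for 3 of 8 in SV5 relative to NIH 3T3 (13.4%), namely Pdgfra, Fgfr1 and Agtr2. These comparisons share arrays.

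**Figure D3:**
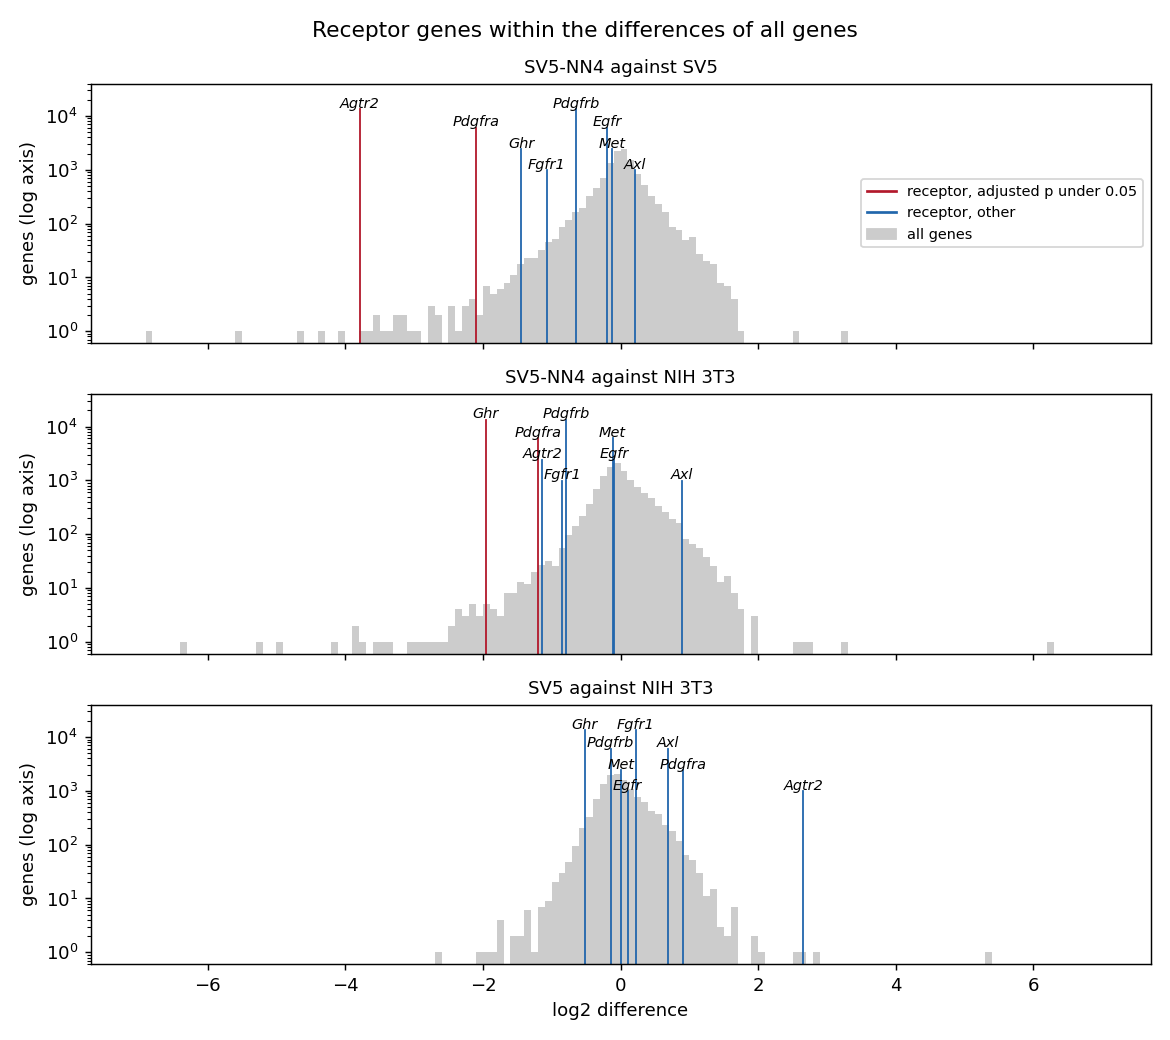
Number of genes (grey, log axis) by log2 difference in bins of 0.1, with the 8 receptors as lines (red where the adjusted p was under 0.05, blue otherwise). In SV5-NN4 against SV5, Agtr2 at -3.79 and Pdgfra at -2.10 lie in the sparse left tail, while Egfr, Met and Axl lie within the bulk of genes.

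NIH 3T3 replicate 1 had the weakest pairing of the 9 arrays, with correlations of 0.26 and 0.33 to the other replicate 1 arrays after line means were removed, where the other pairs reached 0.65 to 0.84. Without it, Fgfr1 (-1.07, adjusted p = 0.0165 in limma) and Ghr (-1.44, adjusted p = 0.0215) were also called for SV5-NN4 against SV5. For SV5-NN4 against NIH 3T3, Pdgfrb (-0.96, adjusted p = 0.0221), Fgfr1 (-1.06, adjusted p = 0.022) and Axl (1.69) were added. The share of all genes called in this fit is not given, so the added calls cannot be set against it. The part of NIH 3T3 replicate 1 in the spread was not examined further.

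How much of the variance lay between lines set the receptors apart from each other. For the brightest probe set it was 83.5% for Pdgfra, 80% for Ghr and 75.7% for Agtr2, against 14.6% for the median probe set of the array. Replicate number took 92.9% of the variance of Met, 76.8% of that of Pdgfrb, 62.7% of that of Fgfr1 and 62.5% of that of Egfr, where the median probe set had 59.5%. In Pdgfrb and Fgfr1, with 3.79% and 5.04% left over, the share between lines was 19.4% and 32.3%, below the share between replicate numbers. Axl and the brightest Egfr probe set kept 30% and 30.8% that neither line nor number took up.

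**Figure D4:**
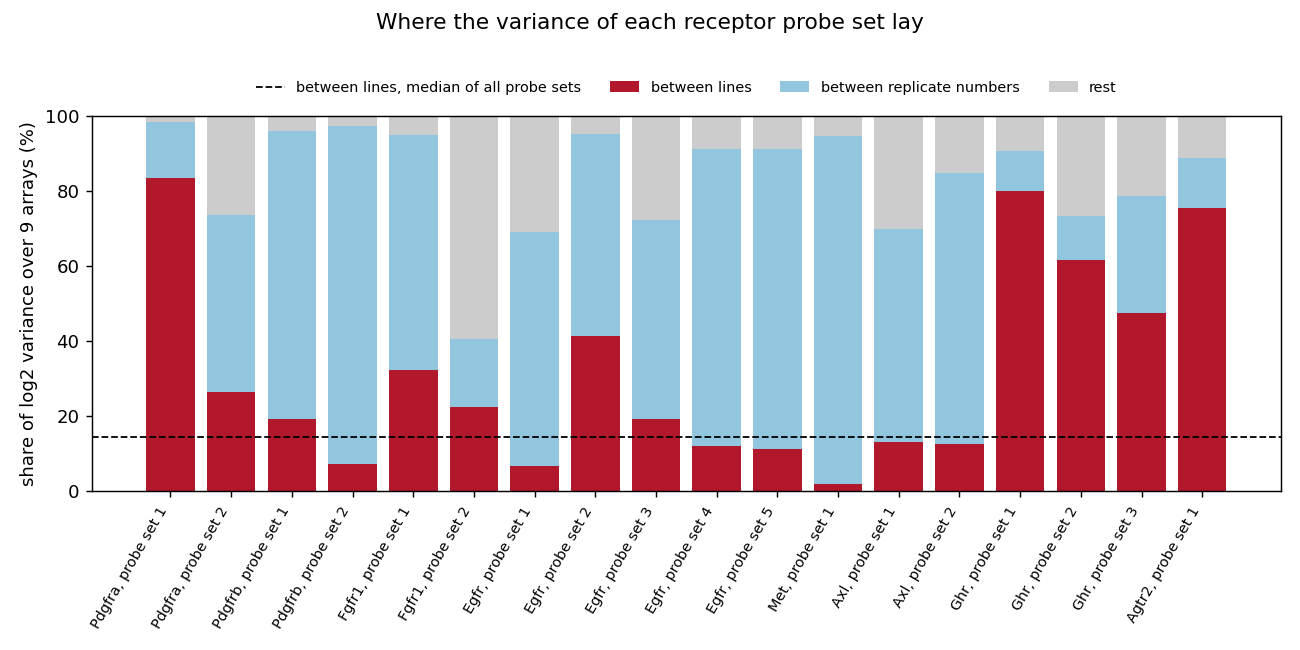
Share of the log2 variance over 9 arrays that lay between lines (red), between replicate numbers (blue) and in the rest (grey), in percent, for each receptor probe set; the dashed line marks 14.6%, the median share between lines over all probe sets. At the brightest probe set Pdgfra, Ghr and Agtr2 are mostly red, while Met and Pdgfrb are mostly blue; the second Pdgfra probe set has more blue than red.

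The ligands and partners of these receptors were followed in 11 lists with 175 entries, of which 151 were measured. Of these, 0 rose and 2 fell in SV5-NN4 relative to SV5 in paired limma, both from the list of negative regulators, where 0.678% of genes were called lower; without the block 0 were called. Grb10, an adaptor that binds insulin-type receptors and dampens them, averaged 9.60 ± 0.26 in SV5-NN4 and 10.63 ± 0.42 in SV5, and fell by 1.04 (SE 0.17, adjusted p = 0.0437). It also fell relative to NIH 3T3, by 1.23 (SE 0.17, adjusted p = 0.0252). Over the mean of its probe sets the difference from SV5 was -0.41 (adjusted p = 0.132). Cav1, the coat protein of caveolae, averaged 11.18 ± 0.27 in SV5-NN4 and 12.18 ± 0.23 in SV5, and fell by 1.0 (SE 0.13, adjusted p = 0.0249). Relative to NIH 3T3 the other call was Ror2, a receptor for Wnt5a, which fell by 0.87 to 4.50 ± 0.22 in SV5-NN4, close to the floor, against 5.37 ± 0.33 in NIH 3T3 (SE 0.15, adjusted p = 0.0464). Each of these calls was lost without the block (adjusted p from 0.461 to 0.903) and without any SV5-NN4 array, and those of Grb10 and Cav1 against SV5 also without any SV5 array. Relative to NIH 3T3, the call of Ror2 was made in 1 of 9 fits that left out an array, the one without NIH 3T3 replicate 1, and that of Grb10 in 2 of 9, without NIH 3T3 replicate 1 or SV5 replicate 3. Of the other settings, Ror2 was called in 3 of 8, being lost also with only these lines (0.111), a pseudocount of 16 (0.0678), arrays centred on medians (0.0586) and quantile normalization (0.0843). Grb10 against SV5 was called in 4 of 9, being lost also with a pseudocount of 16 (0.0597), arrays centred on medians (0.0563) and an intensity trend (0.0554), and against NIH 3T3 in 7 of 9, being lost also with only these lines (0.104). Cav1 was called in 8 of 9.

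By list, SV5-NN4 against SV5 gave these counts. Of 4 measured genes for PDGF and related ligands and binding proteins 0 were called, with 2 above and 2 below 0. Pdgfa, a ligand of the alpha receptor, stood at 8.75 ± 0.13 in SV5-NN4 and 8.04 ± 0.34 in SV5 (difference 0.71, adjusted p = 0.082 in limma). Of 4 genes of the Gas6-TAM system 0 were called, and all 4 lay below 0 with a median of -0.79, where the median gene had 0.01. The Axl ligand Gas6 stood at 5.68 ± 0.43 in SV5-NN4 and 7.50 ± 0.74 in SV5 (difference -1.82, adjusted p = 0.0648), with 3 of 3 pairs negative. The related ligand Pros1 differed by -0.74 (adjusted p = 0.111), and the receptor Mertk by -0.84 (adjusted p = 0.415).

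In the FGF system 0 of 17 were called and the median was 0.03. Fgf7, a ligand made by mesenchyme that acts on epithelium, differed by -1.24 (adjusted p = 0.133), Fgfr2 by -0.61 (adjusted p = 0.16) and the heparan sulphate proteoglycan Gpc1 by 0.86 (adjusted p = 0.108). In the EGF family 0 of 9 were called (median 0.02), in the HGF-Met system 0 of 9 (median -0.02), in growth hormone and JAK-STAT5 signalling 0 of 9 (median -0.01) and in the angiotensin system 0 of 5 (median -0.03). Igf1, a target of growth hormone in liver, differed by -0.96 (adjusted p = 0.511). Of 25 adaptors and effectors 0 were called (median -0.12), of 20 negative regulators 2 (median -0.06), of 18 early response genes 0 (median 0.00) and of 31 other receptor tyrosine kinases 0 (median -0.01). At an unadjusted p under 0.05 in limma 11 of the 151 were higher and 15 lower, where 7.32% of all genes were higher and 7.33% lower.

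Relative to NIH 3T3, SV5-NN4 had 2 of the 151 lower, Grb10 and Ror2, and 0 higher, where 0.686% of all genes were called lower. At an unadjusted p under 0.05 in limma 9 of the 151 were higher and 19 lower, where 11.3% of all genes were higher and 8.04% lower. The medians of the 11 lists ran from -0.46 for the Gas6-TAM system to 0.05 for the adaptors and effectors, where the median gene had -0.03. For SV5 against NIH 3T3 limma called 0 of 151 with and without the block, with 11 higher and 12 lower at an unadjusted p under 0.05, where 9.07% of all genes were higher and 5.95% lower. The medians there ran from -0.34 for the EGF family to 0.18 for the adaptors and effectors.

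The fibroblast markers were also lower in part. Their summed intensity was 24526 to 38003 on the SV5-NN4 arrays, against 35744 to 53980 on the SV5 arrays and 26085 to 49267 on the NIH 3T3 arrays. Of 13 markers, 11 lay below 0 between SV5-NN4 and SV5 and 2 fell, where 0.678% of all genes were called lower. These were the fibrillar collagen Col3a1, by 1.05 (adjusted p = 0.0336 in paired limma), and Thy1, a lipid-anchored surface protein, by 1.39 (adjusted p = 0.0056). Without the block Thy1 was still called (adjusted p = 0.0231) and Col3a1 was not (0.315). Thy1 also fell relative to NIH 3T3, by 2.09 (adjusted p = 0.00178). Vim differed by 0.01, Fap was at the floor, and the median of the list was -0.41, where the median gene had 0.01. Smooth muscle and pericyte markers summed to 2753 to 4122 in SV5-NN4, 4588 to 7886 in SV5 and 5841 to 7568 in NIH 3T3, of which Acta2 made up 91.4%. Of these 10 markers 0 were called and Abcc9 was at the floor. The other 6 marker lists (epithelial, endothelial, haematopoietic, skeletal muscle, adipocyte and neural) had 0 called between SV5-NN4 and SV5, with medians of -0.05 to 0.10. The part of these shifts in the receptor differences was not tested.

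The genes most like each receptor were found by the correlation of their brightest probe sets over the 9 arrays, after the mean of each replicate number was subtracted, among 7141 or 7142 genes at or above the median level. The correlations are a description of these 9 arrays, whose points share lines and replicate numbers. Because the closest of so many genes were picked, high correlations and a line order shared with the receptor follow largely from the choice. For Axl, Egfr and Met, only 13.3%, 6.76% and 1.88% of the variance lay between lines. Pdgfra was followed most closely by the collectin Colec12 (r = 0.99), the helicase Dhx40 (0.98) and the peptidase Cpq (0.98). Pdgfrb was followed by the Wnt co-receptor Lrp6 (0.99), the growth factor Vegfd (0.98) and Ssbp4 (0.97), and Fgfr1 by the protease inhibitor Timp3 (0.99), the aminopeptidase Anpep (0.98) and the initiation factor Eif1a (0.98). Timp3 averaged 5.74 in SV5-NN4, 10.39 in SV5 and 9.46 in NIH 3T3.

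For Ghr the closest were the transcription factor Bhlhe40 (0.98), the netrin receptor Dcc (0.98) and Enc1 (0.97), all highest in NIH 3T3 and lowest in SV5-NN4. For Agtr2 they were Poglut1 (0.99), the sorting nexin Snx4 (0.97) and Farp1 (0.97), all highest in SV5. Axl was followed by the membrane-cytoskeleton linker Msn (0.99), Lin7c (0.98) and Pgam5 (0.98), all highest in SV5-NN4 and lowest in NIH 3T3. Egfr was followed by Tmem80, Mmab and Rnf166 (0.98, 0.96 and 0.95), and Met by 1810030O07Rik, Borcs5 and Capn2 (0.99, 0.95 and 0.94).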

How the data were processed

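In 9 RNA samples, biotin-labelled cRNA was hybridised to Affymetrix mouse arrays, per the labels' protocols; the design text names a larger array than the 22690 probe sets of the value table imply. The deposited values are intensities per probe set, linear to judge by their range. RMA is named per the submitters' processing notes, without version or settings. The deposited arrays did not share one distribution, with upper quartiles of 165.2 to 239.7. Depth does not apply to arrays; 3 arrays per line limit the precision.

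Values were used as log2(intensity + 1) with no filter. Of 22690 probe sets, 20393 had 1 symbol, 691 several and 1606 none. A gene was read at its probe set with the highest mean, array controls left out. Limma 3.58.1 in R 4.3.3 (lmFit, eBayes) was fitted to all 9 arrays with line and replicate number as terms, leaving 4 residual degrees of freedom. Benjamini-Hochberg adjustment was over all probe sets. The fit was also run on simulated data for SV5-NN4 against SV5. These had the block built in and changes only in probe sets at or above the median level. That run can therefore test neither the pairing nor calls near the floor. Groups and replicate numbers came from the sample titles. The pairing comes from the data: after line means were subtracted, all 9 equal-numbered pairs correlated at 0.26 to 0.84 across probe sets, and the 18 other pairs at -0.73 to 0.11. Subtracting line means makes the deviations within a line cancel. The low values of the other pairs therefore follow in part from the equal-numbered ones and are no separate evidence. Whether replicates came from separate cultures is not in the labels, and the spread that the p-values rest on may therefore be technical.

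The receptors, the 11 pathway lists and the 8 marker lists were chosen with earlier results of these data known. Named genes were all 8 receptors, the called list genes (up to 6 per list and comparison), and the 3 genes most like each receptor; other list genes and the second Egfr probe set were named after their values were seen. Alternatives are given at the end.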

Additional observations from a re-analysis of the deposited data

How the results depend on the processing

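The paired analysis, with the replicate number as a block, is the one reported; without the replicate block 0 genes and 0 probe sets of the receptors were called in each of the 3 comparisons. With only the compared lines fitted, 5 genes and 8 probe sets were called for SV5-NN4 against SV5, and 0 and 0 for SV5-NN4 against NIH 3T3. With a pseudocount of 16 it was 1 gene and 1 probe set for SV5-NN4 against SV5, and with probe sets averaged per gene 1 gene for SV5-NN4 against NIH 3T3. Leaving out single arrays gave 0 to 4 genes and 0 to 6 probe sets for SV5-NN4 against SV5, and 0 to 5 genes and 0 to 6 probe sets for SV5-NN4 against NIH 3T3. The count for SV5 against NIH 3T3 was 0 under all alternatives run. For alternatives other than the fit without the block, the share of all genes called is not given. A change in these counts therefore cannot be told apart from a change in calls over all genes. Among single differences, none of them called, signs turned for Egfr in SV5 against NIH 3T3 after quantile normalization (-0.024) and for Pdgfrb there with the mean of its probe sets (0.17). With arrays left out, Egfr ranged from -0.064 to 0.32 and Met from -0.088 to 0.12 in SV5 against NIH 3T3, Axl from -0.41 to 0.68 and Ror2 from -0.24 to 0.036 in SV5-NN4 against SV5, and Egfr from -0.26 to 0.11 and Met from -0.21 to 2.7e-05 in SV5-NN4 against NIH 3T3. Alternatives for Grb10, Cav1, Ror2 and the second Egfr probe set were chosen after seeing the data. The cause of these shifts was not tested. Met was dim, though above the bacterial controls of the same array on every array. Agtr2 in SV5-NN4 was above them on none. Both facts limit what the differences of these genes can show, and neither gene had a value under the filter on dim probe sets.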
